A study of Mus musculus with 8 samples.

Results

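Core circadian clock genes were taken by name from liver RNA-seq tables of Ube3a mutant mice. The 10 named genes were the activators Arntl, Clock and Npas2, the repressors Per1, Per2, Per3, Cry1 and Cry2, and the PAR bZIP output factors Dbp and Tef. Each table listed 9 of the 10, among 13774 genes in the table of the transgenic mice and 11773 in that of the heterozygous mice; Npas2 was not analysed here. The mice were C57BL/6, fed a diet with 42% fat for 8 weeks and housed under 12 h light and 12 h dark. The groups, with 2 libraries each, were mice labelled Ube3a TG homo, homozygous for a Ube3a transgene (TG), a WT pair that serves as their control, mice labelled Ube3a het (het), and another WT pair that serves as the control of het. The sources used here do not give age, sex, the transgene's promoter, the altered allele of het or the hour at which livers were taken. They also do not say whether replicate libraries are different animals, so p-values reflect only how far these libraries spread, which may be technical variation.

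The mammalian clock is a transcriptional feedback loop. BMAL1, encoded by Arntl, pairs with CLOCK or its relative NPAS2 and activates genes through E-box elements, among them the Per and Cry genes, whose proteins then inhibit the pair. A further loop runs through the nuclear receptors REV-ERB (Nr1d1, Nr1d2) and RORA (Rora), which repress or activate Arntl through RORE elements. DBP and TEF carry the rhythm on to liver enzymes through D-box elements. In mouse liver, transcripts of the outputs and of Arntl peak at opposite times of the day. UBE3A is a ubiquitin ligase that has been reported to bind BMAL1 and promote its degradation. The study asked how raised or lowered Ube3a changes liver transcripts on this diet.

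The windows around the starts of the clock genes are shown first, because the elements named above are short runs of letters that can be looked for there. RefSeq windows on GRCm38.p6, from 250 bases before a gene start to 50 after it, were found for 8 of the 9 listed genes, 13 windows in all. They were searched on both strands for the E-box CACGTG, the related E'-box CACGTT, the D-box TTANGTAA, the RORE and the cAMP response element TGACGTCA, and no match in these windows overlapped another. The 5 windows below run 5' to 3' on the strand of the gene, with the matches in capitals.
Per3, chr4:151044616-151044915, - strand: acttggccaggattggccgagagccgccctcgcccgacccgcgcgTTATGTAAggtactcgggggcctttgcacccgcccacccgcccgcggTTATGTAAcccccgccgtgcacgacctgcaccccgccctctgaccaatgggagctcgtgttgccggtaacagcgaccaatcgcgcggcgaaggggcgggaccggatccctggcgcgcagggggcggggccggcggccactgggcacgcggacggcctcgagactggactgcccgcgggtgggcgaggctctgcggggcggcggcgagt
Tef, chr15:81802423-81802722, + strand: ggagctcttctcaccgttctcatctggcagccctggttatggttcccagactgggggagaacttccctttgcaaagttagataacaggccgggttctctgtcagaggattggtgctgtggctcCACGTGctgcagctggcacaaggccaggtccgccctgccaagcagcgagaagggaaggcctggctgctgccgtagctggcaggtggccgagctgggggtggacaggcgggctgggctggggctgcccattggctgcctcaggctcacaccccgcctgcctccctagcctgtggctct
Cry1, chr10:85185005-85185304, - strand: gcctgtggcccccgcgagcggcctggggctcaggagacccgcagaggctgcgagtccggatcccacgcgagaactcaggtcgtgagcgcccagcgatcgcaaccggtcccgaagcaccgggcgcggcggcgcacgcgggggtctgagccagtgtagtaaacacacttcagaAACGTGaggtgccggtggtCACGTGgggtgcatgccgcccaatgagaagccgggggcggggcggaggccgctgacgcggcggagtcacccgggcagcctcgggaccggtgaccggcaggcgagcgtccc
Per1, chr11:69098699-69098998, + strand: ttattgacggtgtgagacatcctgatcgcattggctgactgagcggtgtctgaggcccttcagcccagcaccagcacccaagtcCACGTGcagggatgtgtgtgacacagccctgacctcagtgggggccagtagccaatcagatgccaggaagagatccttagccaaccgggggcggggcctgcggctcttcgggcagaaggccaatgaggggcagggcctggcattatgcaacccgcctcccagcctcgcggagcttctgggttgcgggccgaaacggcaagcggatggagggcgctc
Arntl, chr7:113207261-113207560, + strand: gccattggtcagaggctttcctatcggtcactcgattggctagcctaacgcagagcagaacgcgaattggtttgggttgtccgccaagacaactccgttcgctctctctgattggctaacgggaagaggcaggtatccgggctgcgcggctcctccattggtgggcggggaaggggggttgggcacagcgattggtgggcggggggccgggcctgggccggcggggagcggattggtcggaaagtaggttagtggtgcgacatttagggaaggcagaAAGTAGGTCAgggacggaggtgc

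Per3 held 2 D-box matches, starting 205 and 158 bases upstream of the gene start. Of all 32851 mouse windows, 2.32% hold at least 1 D-box match. Tef held an E-box match 127 bases upstream of the start shown and another 138 bases upstream of its other start; Per1 held one at 166 bases and Cry1 one at 60 bases upstream. E-box matches occur in 7.15% of all windows. Cry1 (79 bases upstream) and Cry2 (166 bases upstream) held E'-box matches, which occur in 4.68% of windows. Arntl held the RORE match, at bases 27 to 36 downstream of the start shown; 0.606% of windows hold one. The windows of Clock and Dbp, the other start of Arntl and the other start of Per1 held no match to these letters, and no member's window held the cAMP response element (1.79% of windows). A match is a description of letters, not a measured binding site.

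**Figure D1:**
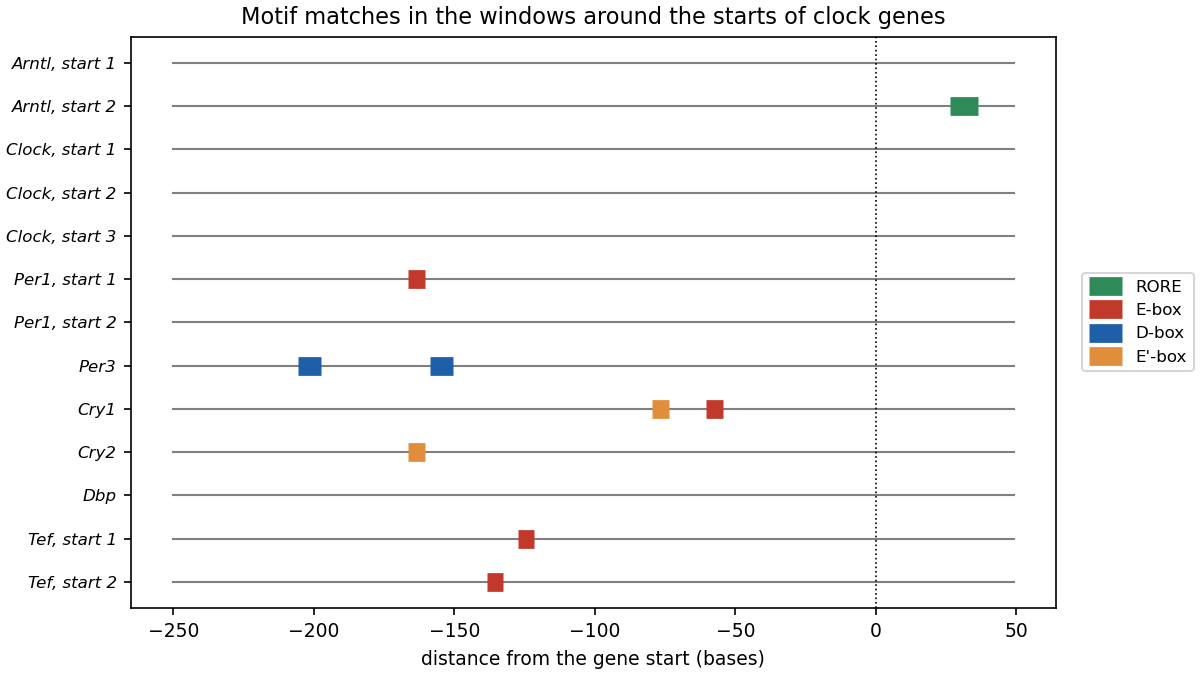
Motif matches in the windows around the starts of 8 clock genes; the horizontal axis is the distance from the gene start in bases, each line is a window and each block a match. The D-box blocks lie in Per3, the E-box blocks in Per1, Cry1 and Tef, the E'-box blocks in Cry1 and Cry2, and the RORE block in Arntl.

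Values are normalised read counts, that is, reads per gene that the authors had scaled by a single factor per library within each table. The recovered reads per library were 46940845 and 47928229 in TG and 45672650 and 44193275 in its WT pair. They were fewer in the other table, with 17748088 and 13171145 in het and 15530192 and 14581137 in its WT pair. Levels are therefore not compared between tables. Ube3a, the targeted gene, had 5991 and 5938 normalised reads in the TG libraries against 1187 and 1359 in their WT pair. It had 301 and 280 in the het libraries against 369 and 409 in their WT pair, so that its direction follows the labels in both tables. The hepatocyte marker Alb was abundant in all 8 libraries, with 2583768 to 3574942 normalised reads over the 4 libraries of TG and its WT pair. Over the 4 libraries of het and its WT pair it had 978951 to 1201760. The TG libraries stood apart from each other in immediate early genes: Egr1 had 287 in TG replicate 1 and 16509 in TG replicate 2, against 2364 and 2590 in the WT pair.

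Per kilobase of annotated exon, the clock genes of each table covered a wide range. In the TG table Tef led, with 1995 normalised reads per kilobase in TG and 1837 in WT, followed by Dbp with 1732 in TG and 1574 in WT. Per2, Per3, Cry2 and Per1 came next, and the ranges of neighbours in that order over the 4 libraries overlapped. Cry1 and Clock were lower, and Arntl was lowest, with 8.40 in TG and 8.01 in WT. In the het table the ranges of Dbp (451 to 740 over the 4 libraries) and Tef (561 to 662) overlapped at the top. Arntl was again lowest, with 4.32 per kilobase in het and 2.83 in WT.

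**Figure D2:**
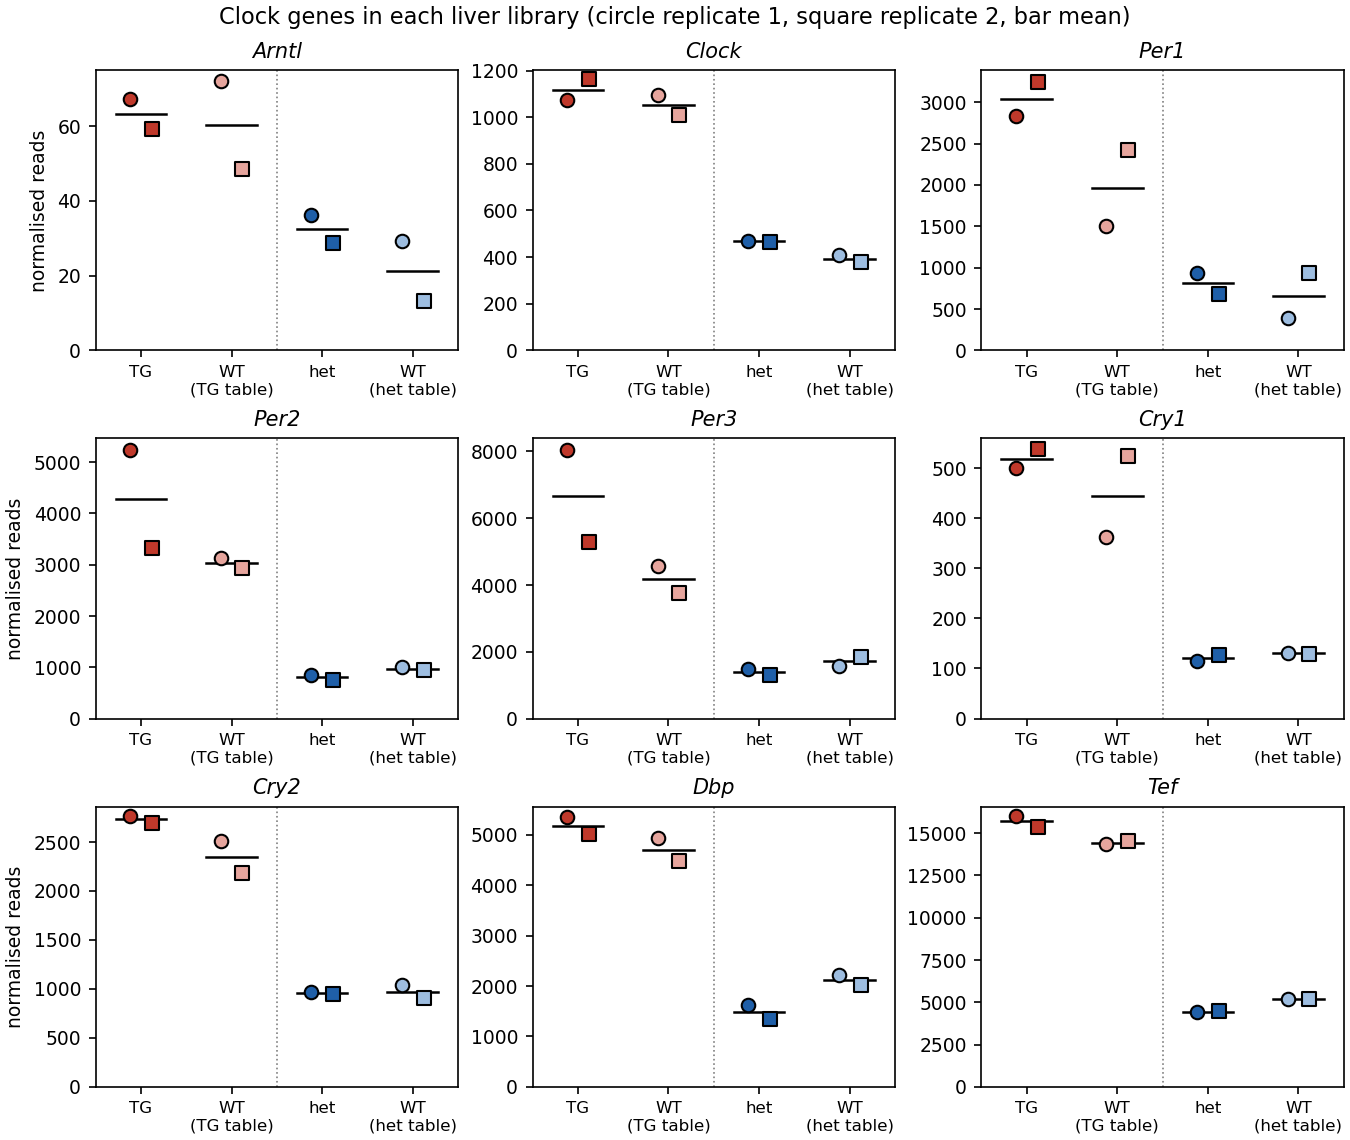
Normalised read counts (vertical axes, each from 0) of the 9 clock genes in each library, with TG and its WT pair left of the dotted line and het and its WT pair right of it; points are libraries and bars are means. Per2, Per3, Dbp and Tef lie above the WT pair in TG and below the WT pair in het, without overlap.

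The activators were near the WT level in TG. Arntl (chromosome 7, 113207465 to 113314126, + strand, GRCm38) had 67.2 and 59.1 normalised reads in TG, compared with 72.0 and 48.5 in WT, and the groups overlapped. Clock (chromosome 5, 76209868 to 76304792, - strand), a histone acetyltransferase and the DNA-binding partner of BMAL1, had 1073 and 1162 in TG, compared with 1093 and 1009 in WT, and overlapped as well. The log2 fold change was 0.09 for both (SE 0.31 for Arntl and 0.12 for Clock; limma adjusted p = 0.937 and 0.822). In het both were higher on average. Clock had 471 and 466 in het against 411 and 377 in WT, with no overlap (log2 fold change 0.25, SE 0.10, limma adjusted p = 0.309). Arntl had 36.2 and 28.8 in het against 29.3 and 13.3 in WT, where the lower het library lay just below the higher WT library (0.68, SE 0.40, adjusted p = 0.488). These Arntl values rest on few reads, 42 and 25 in het and 30 and 13 in WT; the exact 95% Poisson interval of the lowest count runs from 6.9 to 22.2 reads and covers counting error only. Without WT replicate 1 of het the Arntl log2 fold change was 1.22, and without WT replicate 2 it was 0.14.

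Among the repressors, the Per genes were higher in TG. Per3 (chromosome 4, 151003652 to 151044665, - strand), a PERIOD protein that adds to but is not required for the loop, had 8052 and 5291 in TG against 4575 and 3772 in WT. Its log2 fold change was 0.65 (SE 0.24, 95% interval 0.04 to 1.26, limma adjusted p = 0.541). Per2 (chromosome 1, 91415982 to 91459324, - strand), a main inhibitor of the BMAL1 pair, had 5239 and 3326 in TG against 3141 and 2927 in WT (0.46, SE 0.24, 95% interval -0.14 to 1.07, adjusted p = 0.601). In both genes TG replicate 1 was far above the rest and TG replicate 2 only somewhat above WT. Without TG replicate 1 the log2 fold changes were 0.35 for Per3 and 0.13 for Per2, and without TG replicate 2 they were 0.95 and 0.79.

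Per1 (chromosome 11, 69095217 to 69109960, + strand), the PERIOD gene that also responds rapidly to cAMP and glucocorticoids, had 2835 and 3243 in TG against 1504 and 2420 in WT (log2 fold change 0.67, SE 0.25, limma adjusted p = 0.542). Both TG libraries lay above both WT libraries. In TG replicate 1, where Egr1 was lowest, Per1 had 2835, and any link between these genes was not tested. Without TG replicate 2 the log2 fold change of Per1 was 0.57. Without WT replicate 1 it was 0.33. The cryptochromes differed less. Cry1 (chromosome 10, 85131700 to 85185064, - strand), the stronger repressor of the pair, had 500 and 538 in TG, compared with 363 and 524 in WT and overlapped (0.25, SE 0.21). Cry2 (chromosome 2, 92403646 to 92434043, - strand), its paralog, had 2769 and 2698 in TG against 2507 and 2186 in WT, without overlap (0.22, SE 0.13, adjusted p = 0.621). D930015M05Rik, an antisense gene that shares 295 exon bases with Cry2, had 70.2 and 45.1 in TG against 36.0 and 41.4 in WT. Strand use is not given, so whether reads of this gene in the shared bases entered the Cry2 value is not known.

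In het Per2 and Per3 lay below their WT pair, Cry1 and Cry2 were near it, and Per1 varied widely. Per2 had 851 and 757 in het against 998 and 938 in WT (log2 fold change -0.27, SE 0.10, 95% interval -0.50 to -0.04, limma adjusted p = 0.269). Per3 had 1472 and 1296 in het against 1589 and 1857 in WT (-0.31, SE 0.11, 95% interval -0.57 to -0.05, adjusted p = 0.258). Both het libraries lay below both WT libraries for either gene. Cry1 had 115 and 128 in het against 131 and 129 in WT, apart by a small gap (-0.10, SE 0.16). Cry2 had 966 and 951 in het against 1038 and 902 in WT (-0.01, SE 0.10, 95% interval -0.24 to 0.22). Per1 had 936 and 686 in het against 388 and 935 in WT. The WT libraries of Per1 differed 2.41-fold from each other, while the largest ratio of means between genotypes among the clock genes of this table was 1.53 (Arntl). Its log2 fold change of 0.41 (SE 0.59, adjusted p = 0.809) became -0.22 without WT replicate 1.

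The output factors Dbp and Tef were close to WT in TG and lower in het, where neither passed the limma threshold. Hlf, a further PAR bZIP factor outside the members, was added after its values were seen. It overlapped with WT in TG (log2 fold change 0.04, SE 0.13) and in het (-0.03, SE 0.13). In het Hlf had 1104 and 1286 against 1352 and 1099 in WT. Dbp (chromosome 7, 45705088 to 45710203, + strand), the D-site binding protein of albumin and a direct target of the BMAL1 pair, had 1629 and 1350 in het against 2215 and 2028 in WT. This was the largest difference relative to its error among the clock genes of the het table (log2 fold change -0.51, SE 0.12, 95% interval -0.78 to -0.25). It missed the threshold with limma (adjusted p = 0.0827) and passed it with DESeq2 on the recovered reads (adjusted p = 0.0489; the range over all alternatives was 0.0489 to 0.372). In TG Dbp had 5362 and 5008 against 4931 and 4488 in WT (0.14, SE 0.13, adjusted p = 0.746). Sphk2 lies on the other strand and shares 539 exon bases with Dbp. It had 603 and 729 in het against 882 and 797 in WT (-0.34, SE 0.12, limma adjusted p = 0.235). Strand use is not given, so whether reads of Sphk2 in the shared part entered the Dbp value is not known.

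Tef (chromosome 15, 81802421 to 81826863, + strand), thyrotroph embryonic factor, had 4410 and 4492 in het against 5201 and 5206 in WT (log2 fold change -0.23, SE 0.10, limma adjusted p = 0.352). The WT libraries of Tef were nearly equal and both het libraries lay well below them. In TG Tef had 15998 and 15394 against 14358 and 14543 in WT (0.12, SE 0.15, adjusted p = 0.804), again without overlap.

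**Figure D3:**
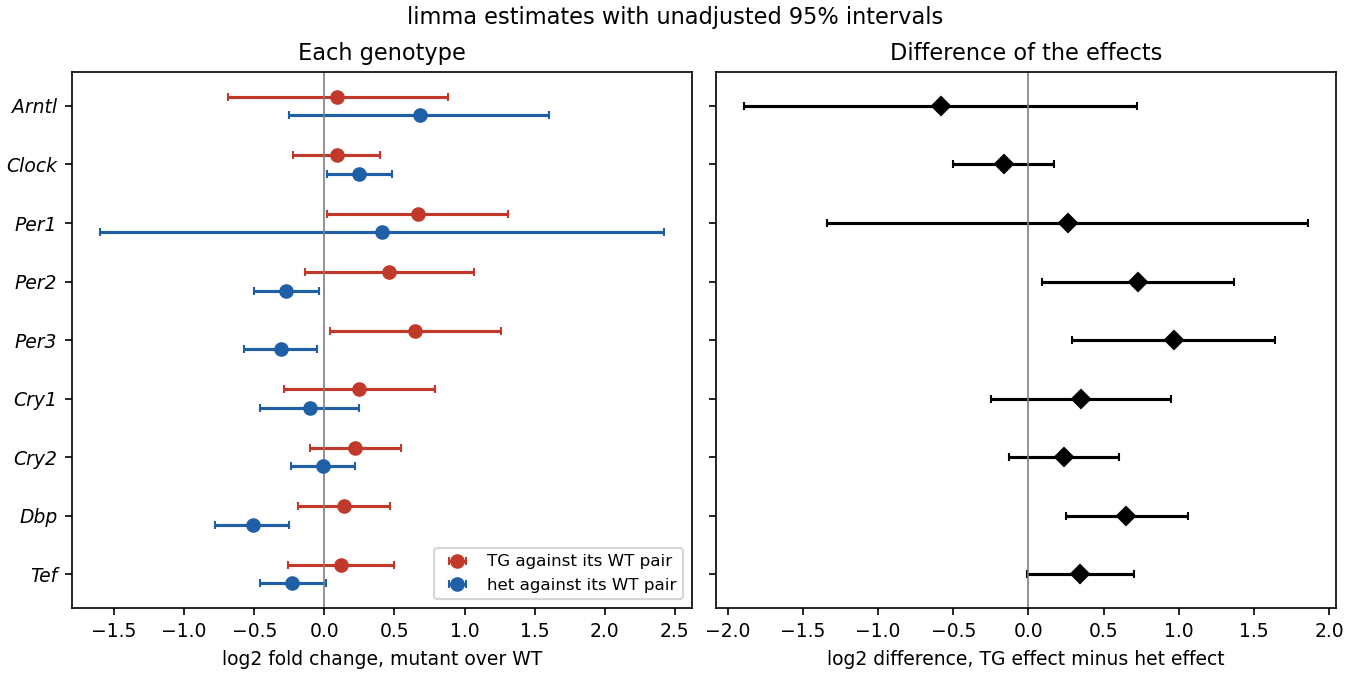
Left, log2 fold change of each clock gene against the WT pair of its own table, TG in red and het in blue; right, the TG effect minus the het effect. Bars are unadjusted 95% intervals from limma with 2 libraries per group. Dbp, Per3 and Per2 have differences of 0.65, 0.97 and 0.73 whose intervals lie above 0.

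Counted together, limma with Benjamini-Hochberg adjustment called 0 of the 9 clock genes in TG (0.0% of all genes were called), 0 in het (1.44% of all genes) and 0 for the difference of the effects (0.434% of all genes). edgeR on the recovered reads called 0 in TG (0.0% of all genes), 0 in het (1.55%) and 0 for the difference (0.374%). DESeq2 called 0 in TG (1.36% of all genes), 1 in het (2.45%) and 0 for the difference (3.16%). At an unadjusted p under 0.05 limma had 2 of 9 in TG (Per1 and Per3, both higher), where 9.12% of all genes reached it. It had 4 of 9 in het (Clock higher, and Per2, Per3 and Dbp lower), against 14.7% of all genes. The TG count was 0 without TG replicate 1 (7.39% of all genes) and 0 without WT replicate 1 (4.28%), and the het count was 1 without het replicate 2 (10.4%). The median log2 fold change of the 9 genes was 0.22 in TG and -0.10 in het, beside medians of 0.001 and -0.001 over all genes tested. Without single libraries it ranged between 0.13 and 0.32 in TG and between -0.22 and -0.02 in het.

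By the separation of libraries, 6 of 9 clock genes had both TG libraries above both WT libraries (Per1, Per2, Per3, Cry2, Dbp and Tef), as had 21.8% of all genes, and 0 were separated downward (21.6% of all genes). In het 5 of 9 were separated downward (Per2, Per3, Cry1, Dbp and Tef, beside 23.7% of all genes) and 1, Clock, upward (24.3%). For Cry1 the gap was small, with 127.7 in the higher het library and 129.2 in the lower WT library (log2 fold change -0.10, SE 0.16). The 4 genes Per2, Per3, Dbp and Tef combined both, higher in TG and lower in het, as did 7.23% of the 11754 genes listed in both tables. The reverse combination was shown by 0 of 9 clock genes and 7.86% of all genes. The WT pairs of the tables are different libraries, so that this contrast shares no controls. Within each table, however, all clock genes were read from the same libraries, so their separations are not independent of each other. The test of the difference of the effects gave 0.97 for Per3 (SE 0.29, limma adjusted p = 0.189), 0.73 for Per2 (SE 0.28, adjusted p = 0.256), 0.65 for Dbp (SE 0.18, adjusted p = 0.159) and 0.34 for Tef (SE 0.16, adjusted p = 0.317). At an unadjusted p under 0.05 there were 3 of 9, against 16.7% of all genes, and DESeq2 had 4 of 9, against 13.5% of all genes by its own test. Without TG replicate 2, Per2 (1.06, adjusted p = 0.012) and Per3 (1.27, adjusted p = 0.0149) passed the threshold, as did 5.47% of all genes in that fit, against 0.434% with all libraries.

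A difference of log2 levels within a library is moved little by that library's scaling factor. It is not fully free of it, because 1 was added to each value before the log, which weighs most on Arntl. The mean log2 level of Per3, Dbp and Tef minus that of Arntl and Clock was 5.03 and 4.81 in TG against 4.60 and 4.81 in WT, where the groups met at their edge. It was 4.05 and 4.08 in het against 4.56 and 5.20 in WT, and both het libraries lay below both libraries of their WT pair. On average het stood 0.81 below its WT pair on this log2 scale (4.06 ± 0.02 in het and 4.88 ± 0.45 in WT, SD, n = 2 each). With pseudocounts of 0.5 and 5 in place of 1, the mean difference in het was -0.82 and -0.76. Without Arntl, the member with the fewest reads, the mean difference was -0.60 in het and 0.22 in TG. The TG libraries then had 3.04 and 2.67 against 2.65 and 2.63 in WT, apart by a small gap. Per3, a repressor, was counted here with the output factors, and Per1, Per2 and the Cry genes were not part of this value. No test was made, because the genes were chosen with earlier results known.

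**Figure D4:**
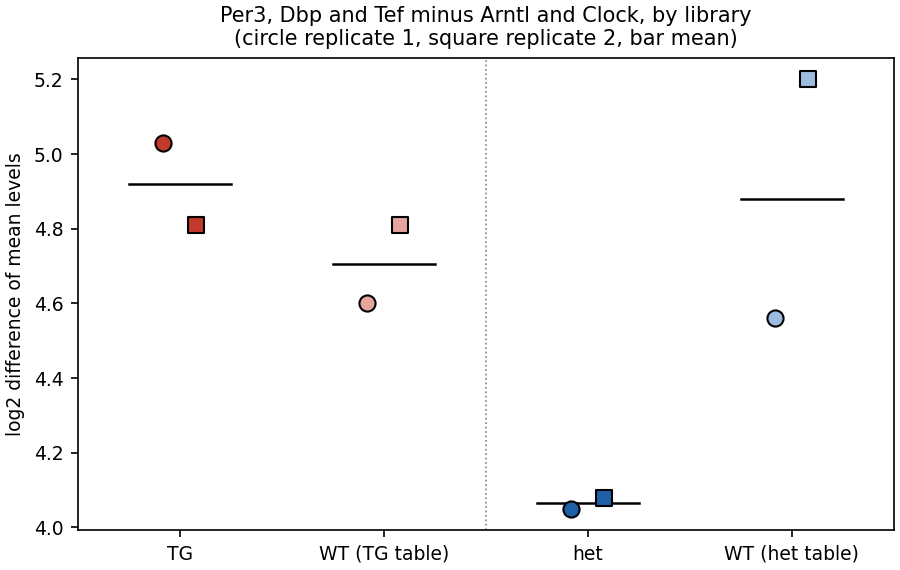
Mean log2 level of Per3, Dbp and Tef minus mean log2 level of Arntl and Clock in each library (vertical axis, log2 units, not from 0); points are libraries and bars are means. Both het libraries are at 4.05 and 4.08, below the 4.56 and 5.20 of their WT pair, while TG and its WT pair meet at 4.81.

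The other transcription factors of the loop were measured for 10 of 11 listed genes in TG and 9 of 11 in het, and 0 were called in either direction in either table. In TG 4 of 10 stood above WT without overlap, as did 21.8% of all genes. Rora, a nuclear receptor that activates Arntl, had 3933 and 3750 in TG against 2653 and 2730 in WT (log2 fold change 0.51, SE 0.12, limma adjusted p = 0.454). Nr1d2, which encodes REV-ERB beta, had 8108 and 7485 in TG against 5486 and 5926 in WT (0.45, SE 0.14). In het, Bhlhe40, an E-box repressor, had 2533 and 2093 against 1659 and 1927 in WT (0.36, SE 0.13), and its relative Bhlhe41 had 54.3 and 74.8 against 120 and 80.0 in WT (-0.61, SE 0.26). Nr1d1, which encodes REV-ERB alpha and was chosen after its values were seen, had 4507 and 3556 in TG against 3529 and 2187 in WT. Nr1d1 had 814 and 725 in het against 1608 and 972 in WT, so that it too was higher in TG and lower in het. The difference of the effects was 1.23 for Nr1d1 (SE 0.43, limma adjusted p = 0.243). Its paralog Nr1d2 did not share this, as it overlapped with WT in het (-0.08, SE 0.11). Rora and Bhlhe40 lay above WT without overlap in TG and in het alike (Rora 0.14, SE 0.10, in het, and Bhlhe40 0.34, SE 0.16, in TG).

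Of 16 modifiers of clock proteins, kinases, ubiquitin ligases and their opponents, 0 were called in TG and 0 in het, and only Ube3a was called for the difference of the effects (2.65, SE 0.15, limma adjusted p = 0.00157). Ube3a itself, the targeted gene, missed the threshold in TG (log2 fold change 2.23, SE 0.13, limma adjusted p = 0.0586) and in het (-0.42, SE 0.11, adjusted p = 0.129). A count of 0 called genes therefore does not show that their levels were unchanged. Fbxl21, whose product acts on cryptochromes, was chosen after its values were seen. It had 467 and 584 in TG, compared with 390 and 410 in WT, and 65.5 and 86.3 in het against 145 and 112 in WT (log2 fold change in het -0.75, SE 0.21, limma adjusted p = 0.147). Of 11 cofactors 0 were called in either table. The acetyltransferase gene Ep300 differed from WT by 0.32 on the log2 scale in TG and by -0.05 in het, and the demethylase gene Kdm5a by 0.33 in TG and by -0.01 in het. Wdr5, a subunit of histone methyltransferase complexes that also joins PERIOD complexes, had -0.11 in TG and -0.24 in het, and the corepressor Ncor1 had 0.10 in TG and 0.18 in het.

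**Figure D5:**
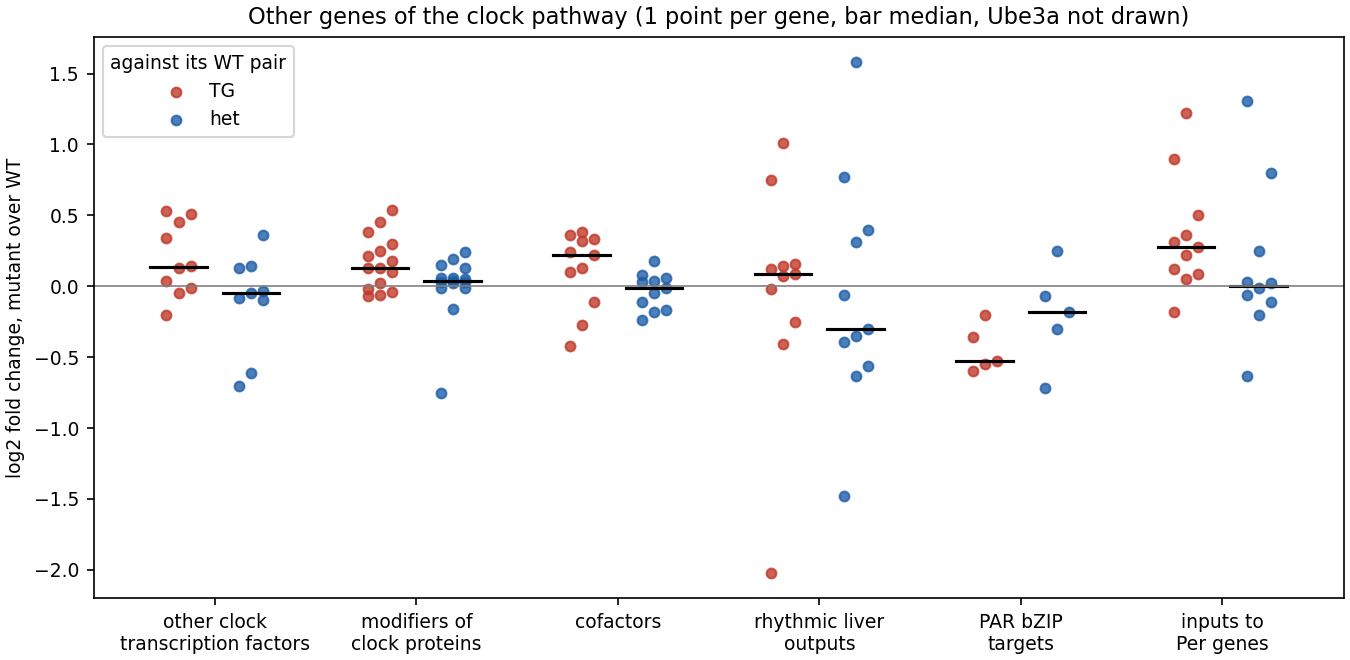
Log2 fold change of the other clock pathway genes against the WT pair of their own table, by list, TG in red and het in blue; each point is a gene, bars are medians and Ube3a is not drawn. The PAR bZIP targets have a TG median of -0.53, which is 0.01 without TG replicate 1, and Elovl3 is the lowest TG point (-2.02) and the highest het point (1.58) of the rhythmic outputs.

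Downstream genes did not share a direction. Of 11 measured rhythmic liver outputs 0 were called in either table. Elovl3, a fatty acid elongase with a strong daily rhythm, had 62.4 and 525 in TG against 630 and 869 in WT (log2 fold change -2.02, SE 1.19, limma adjusted p = 0.652). It had 313 and 383 in het against 161 and 82.0 in WT (1.58, SE 0.36, adjusted p = 0.187), the reverse of the direction of Per3 and Dbp. Gys2, liver glycogen synthase, had 3003 and 3706 in het against 5181 and 4670 in WT (-0.56, SE 0.13, adjusted p = 0.086). Lpin1, a phosphatidate phosphatase, had 13310 and 16118 in TG against 5118 and 10331 in WT (1.01, SE 0.37), and Rgs16, a regulator of G protein signalling, had 11820 and 22213 in TG against 9569 and 9670 in WT (0.75, SE 0.32).

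Of the 5 listed targets of DBP and TEF 0 were called in TG and 0 in het. All 5 had negative log2 fold changes in TG (median -0.53), but this rested on TG replicate 1: without that library 3 of 5 were positive and the median was 0.01, an alternative chosen after the values were seen. Leaving out any of the other libraries gave medians of -0.78 to -0.34. Nr1i3, the nuclear receptor CAR, had 6131 and 11090 in TG, compared with 12904 and 12133 in WT, and 2701 and 3222 in het against 3284 and 3419 in WT. Cyp2b10, a CAR target, had 369 and 493 in TG against 673 and 581 in WT (-0.55, SE 0.19, limma adjusted p = 0.535). Cyp2a5, whose paralogs may share its reads, had 17062 and 22085 in het against 26129 and 39099 in WT (-0.72, SE 0.23, adjusted p = 0.232). In the list of inputs to the Per genes 0 of 11 were called in TG and 0 of 10 in het. The glucocorticoid receptor gene Nr3c1 differed from WT by 0.31 on the log2 scale in TG and by 0.02 in het, and Creb1, which encodes the cAMP response element binding protein, by 0.36 in TG and by -0.01 in het. In het the glucocorticoid-induced genes Zbtb16 (1.31, SE 0.39) and Sgk1 (0.80, SE 0.30) had both libraries above WT, as had 24.3% of all genes. Neither passed the threshold (limma adjusted p = 0.252 and 0.340). Fkbp5 (-0.06, SE 0.15) and Tsc22d3 (0.25, SE 0.23), from the same list, overlapped with WT in het.

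Over the 8 libraries, each log2 value centred on the mean of its table, the genes outside the members closest to Dbp by root mean square difference were Abcc6 (0.051 log2 units), Nsun5 (0.054), Glmn (0.054), Zfp341 (0.056) and BC024386 (0.063). The deviation of Dbp itself was 0.207. Tef was the closest member, in place 334 of 11753 genes (0.137), while Per3 stood in place 5358. Abcc6, a transporter of hepatocytes, had 3254 and 2950 in het against 4942 and 4464 in WT and was lower in het with limma (log2 fold change -0.60, SE 0.11, adjusted p = 0.0442). Abcc6 was picked for its likeness to Dbp over these same libraries, so its direction in het follows from that choice. Of all genes, 1.44% were called in het. The genes closest to Arntl were Nedd4l (0.133), Mpzl1 (0.137), Slc30a10 (0.159), Tjp3 (0.170) and Impa2 (0.188), against a deviation of 0.399 for Arntl itself. Clock was the closest member to Arntl, in place 385 (0.322).

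Markers of some other liver cells shared a direction of log2 fold change within a table, although no gene was called in TG. All 8 endothelial markers had negative log2 fold changes in TG, with summed levels of 10512 and 10411 against 13045 and 12705 in WT. All 8 were positive in het (sums of 3847 and 3966 against 3019 and 3387 in WT), but by unequal amounts. Lyve1 (0.92) and Gpr182 (0.67) rose in het (limma adjusted p = 0.0403 and 0.0442), while Stab2 (0.01) and Clec4g (0.05) were near WT. Of all genes, 1.44% were called in het. Kupffer cell markers had negative log2 fold changes in 8 of 8 cases in TG (sums of 14702 and 19333 against 24541 and 22340 in WT) and positive ones in 7 of 8 in het (6183 and 8586 against 5092 and 6893 in WT). Of the Kupffer cell markers 0 were called in either table, and their sums in het overlapped with WT. Hepatocyte markers had positive log2 fold changes in 7 of 8 cases in TG (median 0.29) and negative ones in 5 of 8 in het (median -0.07). In TG 5 of 8 were separated upward, as were 21.8% of all genes. The largest in TG was Apoa1, an apolipoprotein of hepatocytes, with 327626 and 314698 in TG against 103440 and 126986 in WT (log2 fold change 1.49, SE 0.24, limma adjusted p = 0.296). The hepatocyte sums, of which Alb is the largest share, overlapped in TG (4603049 and 4098864 against 4314371 and 3402048 in WT) and in het (1288239 and 1414452 against 1571447 and 1347021 in WT). Stellate markers were positive in 5 of 7 cases in TG and in 2 of 7 in het, and their sums overlapped in TG (17089 and 13015 against 11496 and 13072 in WT) and in het (3500 and 3696 against 3620 and 3893 in WT). The sums of 5 cholangiocyte markers were 1453 and 1742 in TG, compared with 1458 and 2378 in WT, and the 1 marker listed for het had 257 and 372 against 295 and 316 in WT. The sums of 7 lymphocyte markers were 298 and 153 in TG, compared with 346 and 285 in WT, and the 2 listed for het gave 41 and 55 against 69 and 47 in WT. No listed marker was at 0 in any library. Fewer cells of a type and less RNA per cell cannot be told apart in bulk liver, and the part of cell composition in the clock gene values was not tested.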

How the data were processed

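Per the labels, liver RNA was taken up in Trizol and sequenced from TruSeq libraries. Tools listed in the submitters' processing notes, without their roles, are featureCounts, Subread 1.5.2 and DESeq2, with the builds GRCm38 and mm10. Annotation and strand use: not given in the sources used here. As deposited, the signal values are gene-level reads divided by the authors by a factor of each library: from the values, 100% of entries in every library were within 0.001 of a whole multiple of a single step per library, taken here as 1 read. A check on low values alone settled that step only for TG replicate 1, because elsewhere it is close to 1 or the lowest value exceeds a step; read totals, Poisson intervals and the count tests rest on it. The lowest gene means listed were 11.2 normalised reads in the TG table and 17.8 in the het table. The members and lists were chosen with earlier results of these data known.

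Groups followed the labels. The test was limma 3.58.1 in R 4.3.3 on log2(value + 1), with trend and robust estimates, within each table, adjusted by Benjamini-Hochberg over all its genes with a threshold of 0.05. Fold changes are on that scale, which understates low genes. The difference of the effects was fitted over 8 libraries and 11754 joint genes. edgeR 4.0.16 and DESeq2 1.42.0 were run on the recovered reads as alternatives; over all genes edgeR called 0 in TG; in het it called 110 higher and 72 lower, and for the difference 19 positive and 25 negative. The fits were tested on simulated data. Other alternatives were pseudocounts of 0.5 and 5, mean CPM of at least 1 or 5, TMM scaling, library sizes without the 20 most abundant genes, no trend and robust estimates, all 8 libraries in a single fit, a replicate block and leaving out each library. Separation means that both mutant libraries lie on the same side of both WT libraries. Named genes were the members, Ube3a, and of each other clock list the genes past the threshold or else the 2 of smallest p in each table, plus the 5 genes closest to Dbp and to Arntl; exceptions are marked. Positions and exon lengths came from GENCODE M21 (GRCm38) and promoter windows from RefSeq on GRCm38.p6. Names turned into dates by a spreadsheet (20 in TG and 18 in het) were tested but not joined.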

Additional observations from a re-analysis of the deposited data

Results flagged for a closer look

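For 4 clock genes both TG libraries lay above both WT libraries while both het libraries lay below both of theirs. The TG effect minus the het effect was 0.97 for Per3, 0.73 for Per2, 0.65 for Dbp and 0.34 for Tef on the log2 scale; limma's test of this difference gave adjusted p = 0.189, 0.256, 0.159 and 0.317, so that none passed. Of all genes listed for both mutants, 7.23% showed the same separation. In TG alone, Dbp and Tef differed from WT by only 0.14 and 0.12 on the log2 scale.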

How the results depend on the processing

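No clock gene passed in TG, in het or for the difference of the effects under any limma or edgeR setting that kept all libraries; DESeq2 called 1 in het, Dbp. Leaving out each library in turn gave 0 to 0 called members in TG, 0 to 0 in het and 0 to 2 for the difference (2 without TG replicate 2, Per2 at 1.06 and Per3 at 1.27, in a fit that called 260 positive and 383 negative differences over all genes, against 24 and 27 with all libraries). Of 429 recomputed member values, 419 kept their direction and side of the threshold, 3 passed it and 7 changed sign, all on leaving out a library; the lone library of that arm was then assumed to vary like the others. In TG these were Arntl (-0.00037 without TG replicate 1, -0.19 without WT replicate 2, and a range of -0.19 to 0.37) and Cry1 (-0.02 without WT replicate 1, range -0.02 to 0.51). In het they were Per1 (-0.22, range -0.22 to 1.04) and Cry2 (0.09, range -0.11 to 0.09), both without WT replicate 1. For the difference it was Per1, at -0.09 without WT replicate 1 of TG and -0.38 without WT replicate 2 of het (range -0.38 to 0.89). The cause was not tested. The level of Per3, Dbp and Tef relative to Arntl and Clock stood 0.10 to 0.32 above WT in TG and 1.13 to 0.50 below WT in het (-1.13 to -0.50) when single libraries were left out. With the replicate number as a block, 0 members were called in each comparison; the numbers are not known to pair libraries (correlation of same-numbered deviations over genes 0.11 in the TG table and -0.04 in the het table). Over all genes, limma called 105 higher and 64 lower in het, and 0 without trend and robust estimates or when all 8 libraries shared 1 fit, which called 14 higher and 11 lower in TG. DESeq2 called 97 higher and 91 lower in TG, and 189 higher and 100 lower in het. Depth limits Arntl most, with 13 reads in the lowest library.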
